A study of Mus musculus with 3 samples.

Results

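The guanylin signalling genes of the mouse distal colon were followed along their pathway: the peptide ligands Guca2a and Guca2b, their receptor Gucy2c, the cGMP kinase Prkg2, the chloride channel Cftr, and the scaffolds Slc9a3r1 and Pdzk1. These 7 genes were taken by symbol from 24346 gene symbols, and the FPKM of all isoforms of a symbol were added. FPKM counts sequenced fragments per 1000 bases of transcript, scaled to the depth of the library, so levels of genes of different length can be set side by side. The RNA came from wild-type mouse distal colon at 8 weeks of age, at steady state, with JAX given as the strain; no further allele or agent is labelled. The 3 files form 1 group and are called replicates after the numbers in their titles. The labels do not say whether they came from separate animals, and whether they are separate libraries was not established.

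Guanylin and uroguanylin are small peptides that intestinal epithelial cells secrete into the lumen. They bind guanylate cyclase C on the apical membrane, which then makes cGMP inside the cell. cGMP activates a membrane-bound kinase that phosphorylates CFTR, so that chloride, bicarbonate and water leave the cell, and sodium uptake by the exchanger NHE3 is inhibited. PDZ scaffolds of the NHERF family hold channel, exchanger, kinase and receptor close together below the membrane. Bacterial heat-stable enterotoxins act on the same receptor and cause secretory diarrhoea.

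The 2 ligand genes are neighbours on chromosome 4 and differ in transcript level, so the part of each that encodes the end of the precursor is shown first. In each, the last 15 codons before the stop codon are given 5′ to 3′ with the in-frame cysteine codons in capitals. The C-terminal end holds the active peptide, whose cysteines form the disulfide bonds that receptor binding needs. The bases are from GENCODE M21 transcripts on GRCm38, chr4:119639228-119639272 on the plus strand for Guca2a and chr4:119656795-119656839 on the minus strand for Guca2b.
Guca2a: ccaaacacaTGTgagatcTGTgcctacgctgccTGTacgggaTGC
Guca2b: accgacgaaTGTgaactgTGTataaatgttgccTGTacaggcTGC
Both carry 4 cysteine codons at the same places, codons 4, 7, 12 and 15 counted from the first codon shown. The stretches were identical at 29 of 45 bases (64.4%), and 5 of the 15 codons were the same.

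Guca2a lies on the plus strand at chr4:119637732-119639465 and Guca2b on the minus strand at chr4:119656603-119658945, so the genes point towards each other across 17.1 kb, with no other RefSeq gene in between. Their promoters, 250 bases before to 50 bases after the RefSeq start on GRCm38.p6, are shown because the neighbours differ in level. The Guca2a window is chr4:119637482-119637781, plus strand, and the Guca2b window chr4:119658896-119659195, minus strand. Capitals mark the motif matches.
Guca2a: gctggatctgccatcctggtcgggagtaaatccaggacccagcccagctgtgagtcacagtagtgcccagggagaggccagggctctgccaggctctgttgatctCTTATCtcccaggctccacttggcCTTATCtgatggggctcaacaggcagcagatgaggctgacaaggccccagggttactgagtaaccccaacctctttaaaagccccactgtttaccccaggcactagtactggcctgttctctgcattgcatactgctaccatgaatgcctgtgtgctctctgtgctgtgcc
Guca2b: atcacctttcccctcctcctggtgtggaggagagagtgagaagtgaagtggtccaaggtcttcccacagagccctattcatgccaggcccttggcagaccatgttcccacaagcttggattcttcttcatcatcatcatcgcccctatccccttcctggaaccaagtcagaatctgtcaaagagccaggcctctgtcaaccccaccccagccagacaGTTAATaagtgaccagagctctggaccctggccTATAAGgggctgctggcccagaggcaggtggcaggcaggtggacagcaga
The motifs were chosen after these promoters had been read and were sought on both strands. Guca2a held 2 matches to CTTATC, known as a binding site of GATA factors, and Guca2b none. At least 1 match was found in 7.44% of 32851 promoters, and the share with 2 was not counted. Guca2b held 1 match to GTTAAT, part of the site of HNF1 factors, found in 7.10% of promoters, and Guca2a no exact match. Guca2b also held 1 match to TATAAG, a variant of the TATA box found in 7.43%, at the annotated start, and Guca2a none. Only exact matches were counted, and the full HNF1 site was not sought. The Guca2a window holds gttact, which differs from GTTAAT at 1 base, and 1 base further its reverse complement agtaac. The search therefore does not show that the windows differ in HNF1 sites. Any link of these matches to the levels was not tested. The TATA box core TATAAA (13.6% of promoters) and the caudal factor core ATAAA (40.0%) had no exact match in either window. TATAAA contains ATAAA, so these overlap. The Guca2a window holds tttaaa before the start, which differs from TATAAA at 1 base.

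Read back from the confidence bounds in the files, replicates 1, 2 and 3 held 3780000, 3790000 and 1240000 mapped fragments. Among single-isoform genes averaging 1 FPKM or more (8771 genes), 5 (0.057%) differed between the files in a chi-square test with Benjamini-Hochberg adjustment, and 4.94% had an unadjusted p under 0.05. For nearly all of these genes, differences between the files were not called beyond sampling noise. The files were therefore counted as 1 sample, and the names of the deposited files carry the same index and lane. Each ± below is the SD over the 3 files. It is read as an error of measurement and not as a spread between animals, since separate animals were not established. No test between conditions exists. Surface colonocyte markers all stood above 10 FPKM (7 of 7, Lypd8 at 8567 ± 57.7 FPKM and Car4 at 817 ± 13.5 FPKM), as did 6 of 6 general epithelial and 6 of 6 smooth muscle genes (Tagln at 754 ± 18.9 FPKM). Of 5 distal colon position genes, 4 were measured and Prac1 was not. All 4 reached 1 FPKM, with Hoxb13 at 195 ± 0.610 FPKM and Hoxd13 at 97.9 ± 2.29 FPKM. The RNA is that of whole tissue, in which fewer cells of a type and less RNA per cell cannot be told apart.

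Of the 7 genes, 6 stood at 1 FPKM or more in every file, where 48.5% of all symbols did, and 5 at 10 FPKM or more, where 21.4% of all symbols did. Their median was 17.9 FPKM, against 1.25 FPKM over all symbols and 9.43 FPKM over the symbols at 1 FPKM or more in every file. From the highest to the lowest mean the order was Guca2a, Slc9a3r1, Gucy2c, Guca2b, Cftr, Pdzk1 and Prkg2, a span of 1313-fold. No neighbours in this order overlapped in their 3 values, but the deposited 95% bounds of Guca2b and Cftr overlapped in every file and those of Pdzk1 and Prkg2 in 1 file. The levels of Guca2b and Cftr are therefore not separated at this depth.

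**Figure D1:**
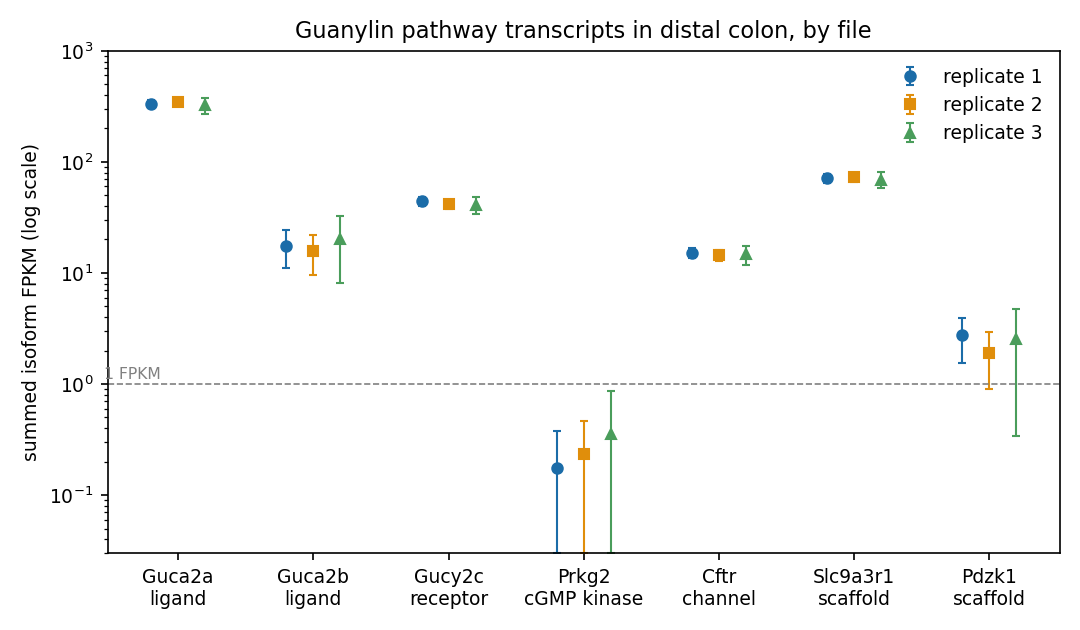
Summed isoform FPKM (log scale) of each gene in the 3 files, with the 95% bounds deposited with the values (for Gucy2c and Pdzk1 combined over isoforms); bounds that reach 0 run off the lower edge. Guca2a stood highest at 322 to 345 FPKM, and Prkg2 was the only one of the 7 genes under 1 FPKM, at 0.175 to 0.355 FPKM.

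**Figure D2:**
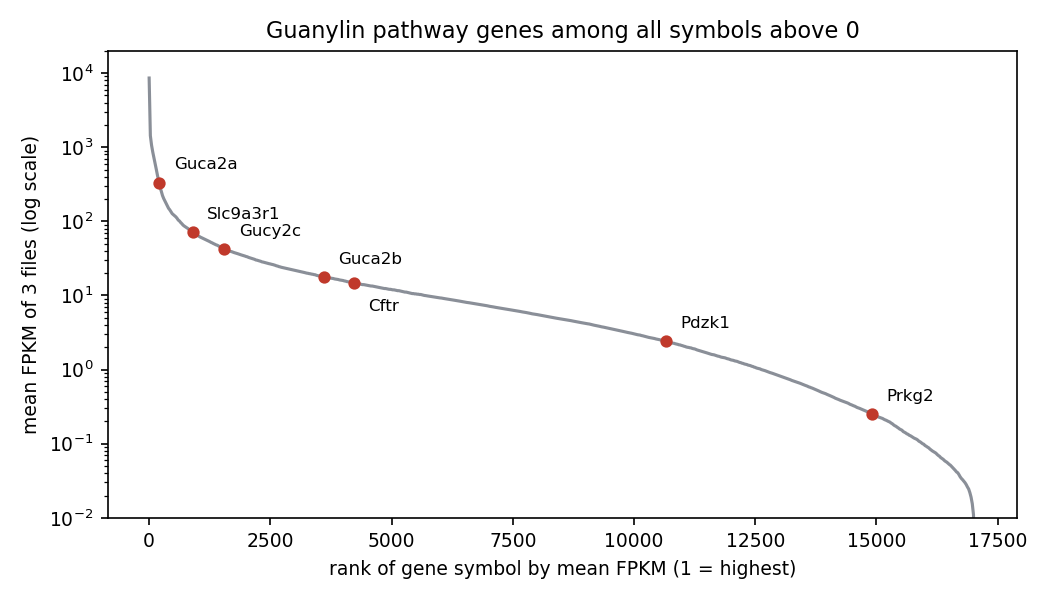
Mean FPKM of the 3 files (log scale) against the rank of each symbol with a mean above 0, with the 7 genes as red points. Guca2a was at rank 210, Slc9a3r1 at 898 and Gucy2c at 1551, while Prkg2 was at rank 14898.

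Guca2a, which encodes the precursor of guanylin, stood at 334 FPKM in replicate 1, 345 FPKM in replicate 2 and 322 FPKM in replicate 3. Its mean of 333.9 ± 11.7 FPKM placed it at rank 210, above 99.1% of symbols. Guca2b, the precursor of uroguanylin, stood at 17.5, 15.8 and 20.2 FPKM in replicates 1, 2 and 3, a mean of 17.9 ± 2.24 FPKM at rank 3602. Every Guca2a value lay above every Guca2b value, and guanylin was 18.8-fold higher than uroguanylin (log2 ratio 4.23 ± 0.23, SD over files), with a 95% interval for counting error of 14.3 to 24.7-fold. The Guca2a level rested on 1163 fragments over the files and the Guca2b level on 66, of which replicate 3 gave 11. The Guca2b count puts its level at 13.3 to 21.9 FPKM (exact Poisson 95% interval).

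The transcripts of both ligands are short, 560 bases for Guca2a and 600 bases for Guca2b. The FPKM in these files are scaled to a length reduced by 194 to 197 bases, a correction that raises short transcripts more than long ones. It acts on both ligands alike but enters each comparison of a ligand with the longer genes of the pathway.

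Other peptides that act on membrane guanylate cyclases were low. Of the natriuretic peptide genes Nppa, Nppb, Nppc and Ostn, none reached 1 FPKM in any file. Nppa, Nppb and Ostn were listed at 0, where 3 fragments over the 3 files would make 0.537, 0.584 and 0.317 FPKM, a limit that covers counting error only. Nppc, the C-type peptide, was listed at 0, 0.603 and 0.915 FPKM.

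Cells that make uroguanylin are known mainly from the small intestine, so small intestine markers are given beside it. Of 7 such genes, 3 reached 1 FPKM in every file, and their summed level was 134 to 151 FPKM over the files. Most of it came from Fabp6, the ileal bile acid binding protein, at 95.6 ± 5.85 FPKM, and Fabp2, a fatty acid binding protein, at 41.7 ± 6.26 FPKM. Lactase (Lct) stood at 0.0440 ± 0.0441 FPKM, and Gata4, a transcription factor of jejunum and duodenum, was at 0 (limit 0.106 FPKM). Secretory cell types were measured as well: goblet cell genes summed to 6719 to 6988 FPKM (6 of 6 at 1 FPKM or more, Zg16 at 3151 ± 119 FPKM), enteroendocrine genes to 419 to 453 FPKM (6 of 6, Pyy at 231 ± 13.7 FPKM) and tuft cell genes to 13.3 to 17.5 FPKM (2 of 6, Il25 listed at 0). The share of any of these cells in the ligand levels was not tested.

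Gucy2c, the receptor guanylate cyclase C, lies on the minus strand at chr6:136697284-136781742. It stood at 44.3, 41.4 and 41.0 FPKM in replicates 1, 2 and 3, a mean of 42.2 ± 1.77 FPKM at rank 1551, above 93.6% of symbols. Per length, guanylin transcripts were 7.91-fold as abundant as receptor transcripts (log2 ratio 2.98 ± 0.07, counting interval 7.18 to 8.70-fold). Uroguanylin transcripts lay below the receptor in every file, at 0.421-fold (log2 ratio -1.25 ± 0.20, interval 0.320 to 0.554-fold). The long Gucy2c transcript nevertheless gave about 1402 fragments, more than the 1163 of Guca2a.

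Gucy2c was the highest of the 8 genes listed as membrane guanylate cyclases or natriuretic peptide receptors. Npr2, the receptor of the C-type peptide, followed at 4.21 ± 0.938 FPKM, and Npr1, the receptor of the atrial peptide, stood at 0.881, 1.22 and 1.44 FPKM. The clearance receptor Npr3 was at 0.243 ± 0.143 FPKM, and the sensory cyclases Gucy2d and Gucy2e were both at 0 (limits 0.0991 and 0.0419 FPKM). Only Gucy2c and Npr2 reached 1 FPKM in every file.

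Gucy2c has 2 listed isoforms. The shorter, NM_145067 (3864 bases), lacks 72 coding bases (24 codons) that the longer, NM_001127318 (3936 bases), holds as exon 14 of 27, at chr6:136728331-136728402. This exon is printed because it alone separates the coding parts of the isoforms, in the direction of the transcript (minus strand), from GENCODE M21 on GRCm38.
Gucy2c exon 14: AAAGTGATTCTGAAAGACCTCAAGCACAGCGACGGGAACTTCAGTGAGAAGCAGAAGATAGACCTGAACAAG
Capitals mark the whole exon.

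The longer isoform carried most of the receptor signal, at 42.4 FPKM in replicate 1, 41.4 FPKM in replicate 2 and 35.4 FPKM in replicate 3. The shorter isoform stood at 1.88 FPKM (deposited bounds 0.813 to 2.95), 0.000274 FPKM (0 to 0.143) and 5.61 FPKM (2.51 to 8.72) in the same files. The shorter form thus made up 4.25%, 0.000661% and 13.7% of the gene, and its bounds in replicate 2 did not meet those of the other files. Among 895 symbols with 2 isoforms and a mean of 10 FPKM or more, 46.9% had an isoform whose bounds did not overlap between files, against 2.04% of 3921 symbols with 1 isoform. Such a split is thus common in these files, and no difference between files was called for the sum over both (chi-square test over all symbols, adjusted p = 1.0).

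**Figure D3:**
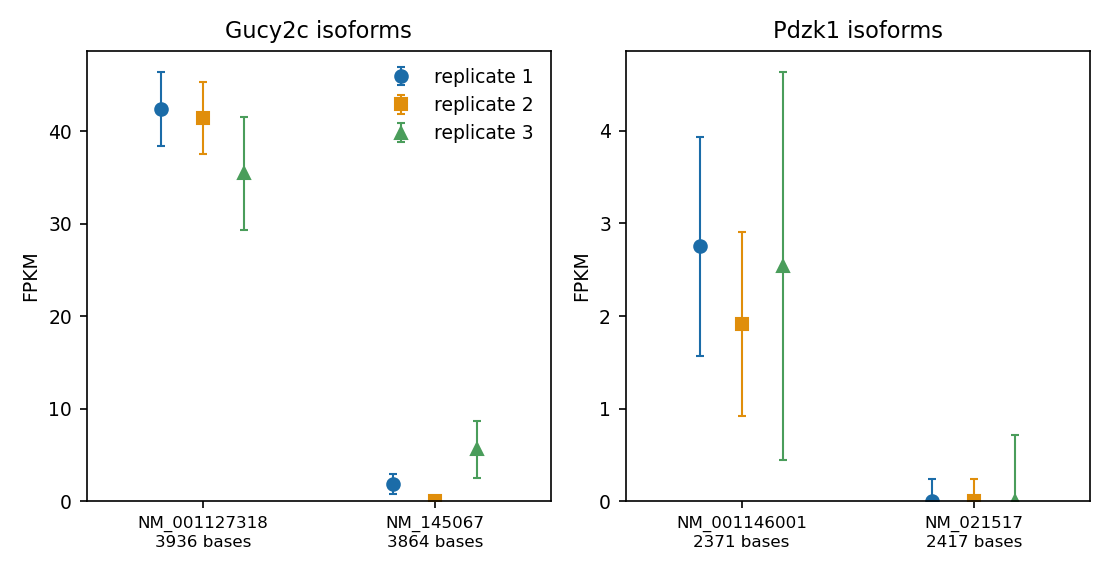
FPKM of the isoforms of Gucy2c (left) and Pdzk1 (right) in the 3 files, with the deposited 95% bounds. The longer Gucy2c isoform stood at 35.4 to 42.4 FPKM, and the shorter one was near 0 in replicate 2 and at 5.61 FPKM in replicate 3.

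Prkg2 encodes the type II cGMP kinase, the membrane-bound form that phosphorylates CFTR. It lies on the minus strand at chr5:98929773-99037079 and was listed at 0.175, 0.233 and 0.355 FPKM in replicates 1, 2 and 3, a mean of 0.254 ± 0.0917 FPKM at rank 14898. These values rested on 3, 4 and about 2 fragments, 9 in all, which put the level at 0.103 to 0.428 FPKM (exact Poisson 95% interval). It was the only one of the 7 genes with a deposited lower bound of 0 in every file, and below 1 FPKM it was left out of the test between files.

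The type I kinase Prkg1, known above all from smooth muscle, stood higher at 3.26, 2.94 and 3.46 FPKM. Prkg2 was at 0.0759-fold of Prkg1 (log2 ratio -3.72 ± 0.47), with a counting interval of 0.0377 to 0.153-fold. The 6 smooth muscle markers summed to 2624 to 2724 FPKM, and their part in the Prkg1 level was not tested. Against the receptor, Prkg2 was at 0.00578-fold of Gucy2c (interval 0.00291 to 0.0114-fold).

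The cAMP-dependent kinase also phosphorylates CFTR, and 4 of its 6 listed subunits stood above both cGMP kinases in every file by a wide margin. The regulatory subunit Prkar1a stood at 55.01 ± 3.06 FPKM, the catalytic subunits Prkacb at 35.2 ± 2.01 FPKM and Prkaca at 29.2 ± 1.78 FPKM, and Prkar2a at 28.6 ± 2.51 FPKM. The regulatory subunits Prkar2b and Prkar1b were lower, at 4.52 ± 0.460 and 2.94 ± 0.682 FPKM, near the level of Prkg1. Of the 8 kinase genes, 7 reached 1 FPKM in every file, and Prkg2 was the exception.

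The other source of cGMP is the soluble guanylate cyclase, which nitric oxide activates. Its subunits Gucy1a3 and Gucy1b3 stood at 7.99 ± 1.52 and 5.94 ± 0.406 FPKM, below Gucy2c in every file. The neuronal nitric oxide synthase Nos1 stood at 3.14 ± 0.359 FPKM, the endothelial form Nos3 at 0.446 ± 0.315 FPKM and the inducible form Nos2 at 0.138 ± 0.138 FPKM. The cyclase subunit Gucy1a2 stood at 0.287 ± 0.0125 FPKM. Of the 7 genes of this list, 3 reached 1 FPKM in every file.

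Enzymes that break cGMP down were led by Pde9a at 43.7 ± 4.42 FPKM and Pde5a at 29.4 ± 0.470 FPKM, both specific for cGMP. Pde2a, which cleaves both cyclic nucleotides, followed at 13.5 ± 0.826 FPKM. The part of smooth muscle in the levels of these enzymes was not tested. Pde6d stood at 18.4 ± 1.42 FPKM but encodes a carrier of lipid-modified proteins with no catalytic part. Of 16 listed genes, 8 reached 1 FPKM in every file, and the photoreceptor enzymes Pde6a and Pde6b stood at 0.0883 ± 0.102 FPKM and at 0 (limit 0.130 FPKM). Pde1c, a calmodulin-dependent enzyme, stood at 0.215 ± 0.216 FPKM. The exporters Abcc4 and Abcc5 stood at 4.88 ± 0.790 and 2.44 ± 0.836 FPKM, Abcc12 was at 0 (limit 0.0789 FPKM), and none of 6 cyclic nucleotide gated channels reached 1 FPKM in any file, with Cnga3 the highest by mean at 0.363 ± 0.180 FPKM. Cngb1 stood at 0.331 ± 0.348 FPKM, Cnga4 at 0.154 ± 0.177 FPKM and Cnga1 at 0.104 ± 0.180 FPKM, and Cnga2 was at 0 (limit 0.119 FPKM).

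Cftr, the cyclic nucleotide regulated chloride and bicarbonate channel, lies on the plus strand at chr6:18170687-18322769 and is mutated in human cystic fibrosis. It stood at 15.2, 14.5 and 14.7 FPKM in replicates 1, 2 and 3, a mean of 14.8 ± 0.385 FPKM at rank 4221. With 791 fragments its exact Poisson 95% interval was 13.8 to 15.9 FPKM. Its SD over the files was 2.61% of its mean, close to Slc9a3r1 at 2.95% and Guca2a at 3.49%, and such differences in spread were not tested. Cftr was at 0.350-fold of Gucy2c (log2 ratio -1.51 ± 0.03, interval 0.315 to 0.389-fold). An opposite-strand gene, Gm15592, overlaps 129 bases (2.05%) of the Cftr transcript, and the sources used here do not say whether counting used strand.

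Cftr was not the highest chloride gene of the tissue. Slc26a3, the chloride-bicarbonate exchanger of surface cells that takes chloride up, stood at 215 ± 1.56 FPKM, and Cftr was at 0.0687-fold of it (log2 ratio -3.86 ± 0.04, interval 0.0631 to 0.0749-fold). Slc12a2, the basolateral cotransporter that loads crypt cells with chloride, stood at 59.8 ± 1.18 FPKM, and the calcium-activated channel Ano1 at 51.6 ± 1.54 FPKM. The RNA also holds that of the muscle wall, and which cells gave the Ano1 level was not tested. Clca1, at 880 ± 4.47 FPKM, is a secreted goblet cell protein and not a channel. Of 12 genes of chloride and bicarbonate transport, 10 stood at 10 FPKM or more in every file, while Slc26a6 was at 0.864 ± 0.123 FPKM and Slc26a9 was at 0 (limit 0.0989 FPKM). All 5 potassium channel genes of secretion reached 1 FPKM, led by Kcne3, the subunit that pairs with Kcnq1 in crypt cells, at 116 ± 4.23 FPKM with Kcnq1 at 17.0 ± 1.07 FPKM, then Kcnn4 at 15.1 ± 0.522 FPKM and Kcnk5 at 14.98 ± 1.54 FPKM. The Kcnq1 level is uncertain, since its transcript overlaps the antisense RNA Kcnq1ot1.

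NHE3, the exchanger that cGMP inhibits, is encoded by Slc9a3, which stood at 0.341, 0.341 and 0 FPKM in replicates 1, 2 and 3. These levels are low, and replicate 3 had the fewest mapped fragments (1240000), so its 0 does not show absence. The related exchanger Slc9a2 stood at 47.0 ± 3.07 FPKM and Slc9a8 at 9.52 ± 1.06 FPKM, and Slc9a4 was at 0 (limit 0.0939 FPKM).

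The cAMP route that opens CFTR was read from transcripts of its receptors and enzymes. The signals themselves were not measured, and whether these transcripts share cells with Cftr was not tested. Vipr1, a receptor of vasoactive intestinal peptide, stood at 38.3 ± 2.53 FPKM, the adenylyl cyclase Adcy6 at 35.5 ± 1.02 FPKM and the prostaglandin E2 receptor Ptger4 at 10.96 ± 1.52 FPKM, while the adenosine receptor Adora2b was at 0 (limit 0.207 FPKM). The stimulatory G protein gene Gnas stood at 492 ± 8.82 FPKM. Gnas and Adcy6 are uncertain, as are Nos1, Nos3, Npr1, Npr3, Nppa, Ostn, Pde2a, Pde9a, Slc9a4 and Tagln above, because transcripts of other genes match them over 100 bases or more at 97% identity. Of the 10 genes, 7 reached 1 FPKM in every file.

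Slc9a3r1 encodes NHERF1, a scaffold whose PDZ domains bind the C-terminal end of CFTR and which links to the cytoskeleton through ezrin. It lies on the plus strand at chr11:115163341-115181178 and stood at 71.0, 73.2 and 69.0 FPKM in replicates 1, 2 and 3, a mean of 71.08 ± 2.096 FPKM at rank 898, from 1099 fragments. It was the second highest of the 7 genes, and its 115-base match to the transcript of Gm37103 leaves it slightly uncertain. Pdzk1 encodes NHERF3, a scaffold with more PDZ domains that also binds CFTR. It lies on the plus strand at chr3:96830065-96870926 and stood at 2.75, 1.92 and 2.55 FPKM, a mean of 2.41 ± 0.437 FPKM at rank 10660. Slc9a3r1 was above Pdzk1 in every file, by 29.9-fold (log2 ratio 4.90 ± 0.31, interval 20.7 to 43.2-fold).

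The Pdzk1 level is the least certain of the 7 after that of Prkg2. Exons of Gpr89, a gene on the opposite strand at 22.5 ± 2.57 FPKM, cover 1153 bases (42.5%) of the longest GENCODE transcript matched to Pdzk1. Without strand, reads from the shared stretch cannot be told apart, and what part of the 2.41 FPKM they make was not tested. Nearly all of the Pdzk1 signal was given to the isoform NM_001146001 (2371 bases), which held 99.9%, 99.9% and 99.7% of the gene in replicates 1, 2 and 3. The bounds of NM_021517 (2417 bases) began at 0 in every file. The overlap with Gpr89 was not computed for each listed isoform.

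Of the other scaffolds, Slc9a3r2 (NHERF2), which brings NHE3 and the type II cGMP kinase together, stood at 7.59 ± 1.74 FPKM. Slc9a3r1 was 9.52-fold above it (log2 ratio 3.25 ± 0.36, interval 7.38 to 12.3-fold). Ezr (ezrin), which joins NHERF1 to actin, was the highest of the list at 195 ± 6.98 FPKM, with moesin (Msn) at 22.2 ± 1.55 FPKM. Ahcyl1, a binding partner of transporters also known as IRBIT, stood at 37.7 ± 1.75 FPKM. Of the 12 scaffold and linker genes, 11 reached 1 FPKM in every file and 6 reached 10 FPKM. The exception was Shank2, at 1.15, 1.97 and 0.979 FPKM.

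**Figure D4:**
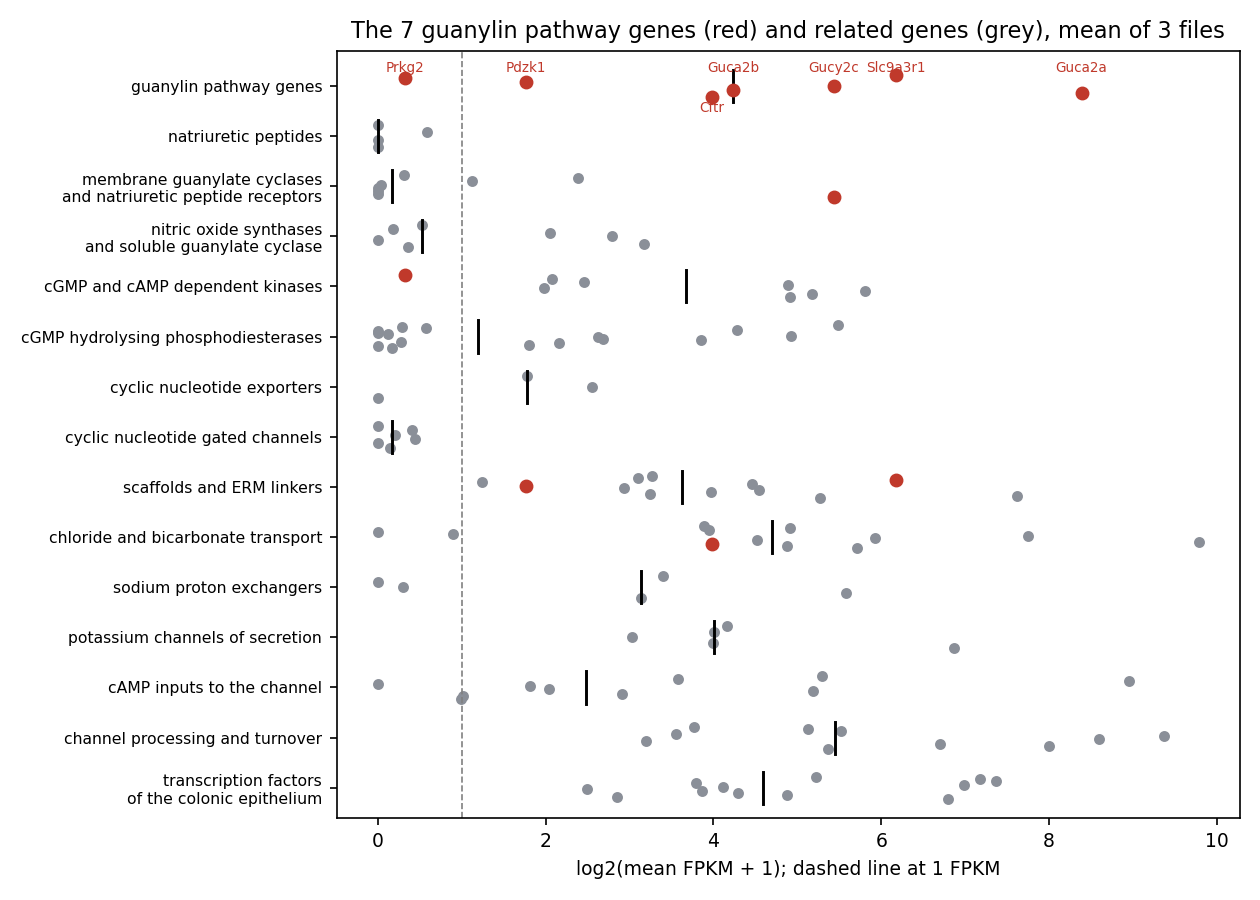
Mean FPKM over the 3 files as log2(FPKM + 1) for the 7 genes (red) and for the genes of each related list (grey), with the list median as a black bar and 1 FPKM as a dashed line. Gucy2c stands apart to the right in its list of membrane cyclases, while Prkg2 is the lowest of the kinases.

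**Figure D5:**
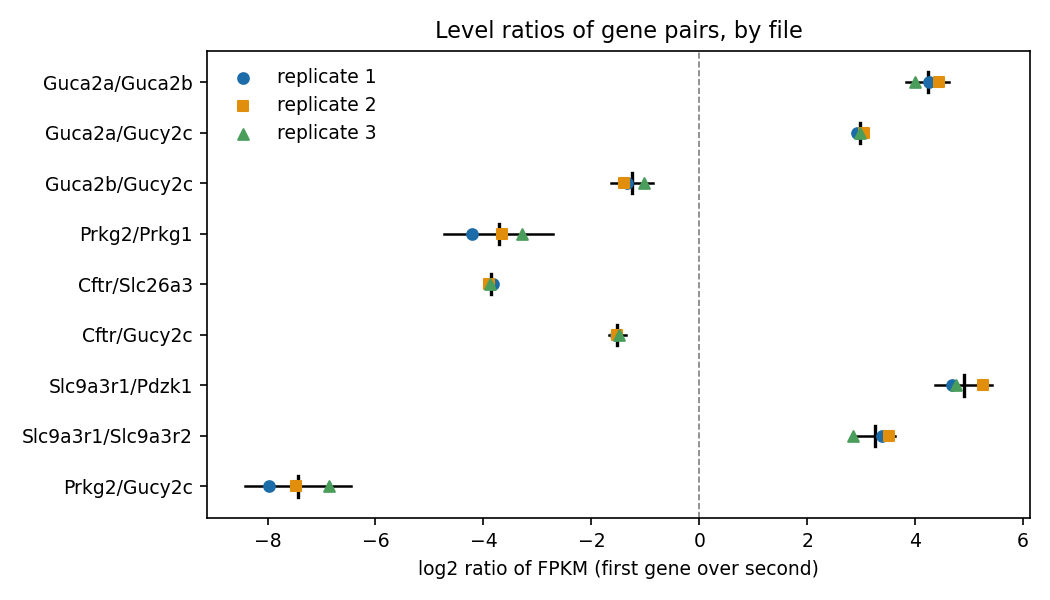
The log2 ratio of FPKM for 9 gene pairs in the 3 files (symbols), with the mean (tick) and its 95% interval for counting error (line). Ratios range from -7.44 for Prkg2 over Gucy2c to 4.90 for Slc9a3r1 over Pdzk1, and no pair changes sign between files.

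Of the 113 other genes of the 14 lists, 76 (67.3%) stood at 1 FPKM or more in every file, where 48.5% of all symbols did, and their median was 7.59 FPKM. In the test between files, the 4 of the 7 genes with a single isoform and a mean above 1 FPKM all had an adjusted p of 0.998 (Guca2a, Guca2b, Cftr and Slc9a3r1), and Pdzk1 and Gucy2c had 1.0 in the fit over all 12629 symbols, of which 0.0713% were called.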

How the data were processed

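Per the labels' protocols, distal colon RNA was isolated in TRIzol, and polyadenylated transcripts entered Illumina TruSeq library preparation. Each file lists 34535 RefSeq isoforms, all with status OK. FPKM and their 95% bounds were deposited by the authors as Cufflinks wrote them, per the file headers. The coverage column, a signal deposited by the authors, was not used. Per the submitters' processing notes, the tools included Cufflinks 2.2.1, Bowtie2 2.3.4.3 and TopHat2 2.1.1; their settings were not used here. The notes name GRCm39, but 98.0% of 23002 symbols lay within 1000 bases of RefSeq genes on GRCm38.p6, so positions are given on GRCm38, counted from 1.

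Isoform FPKM were summed per symbol. The upper bound less the FPKM was read as 2 standard errors, and the squared error over the FPKM as the worth of 1 fragment. In single-isoform genes over 800 bases with up to 30 fragments, 64.2% to 64.3% of values lay within 0.01 of a whole number. Depth and length correction came from a Theil-Sen fit of fragments per FPKM on length. Fragments of genes with 2 isoforms came from this fit. Ratio intervals add the variances of the bounds and are approximate at low counts. The chi-square test was tested on simulated data. Limits for a listed 0 are 3 fragments over the files together, at the shortest isoform. Intervals and limits cover counting error only.

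The genes and lists were chosen with earlier results of these data known. The rule for named genes took all 7 genes, the paired genes and, in each list, the 4 highest genes and up to 3 genes under 1 FPKM in every file. Marker lists are given by counts and sums, with only some of their genes under this rule named. Further genes, outside the rule, were named after their values were seen. Liver and kidney markers were also read: 5 of 5 liver genes and 0 of 5 kidney genes reached 1 FPKM in every file. Copies were sought with BLAST+ 2.17.0 in GENCODE M21 transcripts (100 bases at 97% identity). Promoters are credited to RefSeq, and protein sequences were not used here. Alternatives covered thresholds, rescaling, isoform choice, pseudocounts, the genes tested and each replicate left out. The scripts ran under SciPy 1.17.1, statsmodels 0.14.6, pandas 2.3.3, numpy 2.4.6, matplotlib 3.10.9 and Python 3.11.15. One gene of the exchanger list is not reported here.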

Additional observations from a re-analysis of the deposited data

How the results depend on the processing

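Of 214 recomputed values, 201 moved by less than the spread over files or, for counts, by at most 1.5 times. Much of this was fixed in advance. With 1 replicate left out, the mean of a level, ratio or isoform share cannot move by more than the SD over the 3 files. For a gene with 1 isoform, the highest isoform equals the sum. The 201 is therefore no measure of robustness. The count of membrane guanylate cyclases and receptors moved by exactly this much, to 3 without replicate 1 and at a threshold of 0.5 FPKM, against 2 as reported. With each gene represented by its highest isoform alone, Gucy2c stood at 39.7 FPKM, and the log2 ratios were 3.08 for Guca2a/Gucy2c, -1.42 for Cftr/Gucy2c and 3.75 for Slc9a3r1/Slc9a3r2. A pseudocount of 1 FPKM put the log2 ratios of Prkg2/Prkg1 at -1.75, Cftr/Slc26a3 at -3.77, Cftr/Gucy2c at -1.45, Slc9a3r1/Pdzk1 at 4.41 and Prkg2/Gucy2c at -5.11. A threshold of 2 FPKM left 1 of 3 cyclic nucleotide exporters, and 5 of the 7 guanylin pathway genes, since Pdzk1 was at 1.92 FPKM in replicate 2. The test between files called 9 genes over all symbols and 2 to 5 genes with 1 replicate left out, 2 of them without replicate 1 and 2 without replicate 2. No ratio changed sign. No paired analysis was possible because the samples form 1 group. Depth limits Prkg2 (9 fragments) most, then Pdzk1 (45 fragments) and Guca2b (66 fragments).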

Other observations

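Transcription factors of the colonic epithelium were all measured, and 12 of 12 stood at 1 FPKM or more in all 3 files (list median 23.6 ± 0.693 FPKM). Klf4, a factor of goblet and surface cells, stood at 165 ± 3.66 FPKM, Klf5, a crypt factor, at 144 ± 13.1 FPKM, Hnf4a at 126 ± 0.838 FPKM and the caudal factor Cdx1 at 110 ± 1.28 FPKM. Genes that fold and turn over CFTR were likewise all at 1 FPKM or more (10 of 10, median 42.6 ± 2.51 FPKM). The chaperone Hspa8 stood at 659 ± 11.5 FPKM and is uncertain for near-identical copies, Hsp90ab1 at 385 ± 11.1 FPKM, and the lectin chaperones of the endoplasmic reticulum at 254 ± 5.04 FPKM (Calr) and 103 ± 2.84 FPKM (Canx).

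Liver genes were also found in the distal colon RNA: 5 of 5 reached 1 FPKM in every file, while 0 of 5 kidney genes did. Albumin (Alb) stood at 129 ± 5.35 FPKM and transthyretin (Ttr) at 60.7 ± 7.73 FPKM. The source of these transcripts was not tested, nor was any part of the same source in the levels of the guanylin pathway genes.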
